A study of Drosophila melanogaster with 3 samples.

Results

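Row was mapped by ChIP-seq in whole embryos of Drosophila melanogaster, and this account describes the Row peaks that lay at the promoters of neighbouring genes on opposite strands. All samples were embryos aged 0 to 24 h of a single transgenic strain, row-GFP, whose inserted construct makes Row fused to enhanced green fluorescent protein. The tag was precipitated with an antibody against GFP, and the 3 samples are labelled as biological replicates 1, 2 and 3 of 1 group. There was therefore no second condition, and the precipitated protein is the tagged one, in embryos of mixed stage, with all tissues together and the sex not recorded. A peak was a member if its summit, the base the authors gave as the highest point, lay within 500 bp of protein-coding transcription start sites (TSSs) of at least 2 genes on opposite strands. Of the 10483 peaks of the authors' conservative list, 1545 (14.7%) met this rule. A further 2996 peaks had TSSs of 1 strand only within that distance and are called one-strand promoter peaks, and the other 5942 had none. The rule selected 1629, 1298 and 1399 peaks from the thresholded lists of replicates 1, 2 and 3.

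Many Drosophila genes are arranged head to head, so that a short stretch of DNA serves as the upstream region of both. Such shared promoters are frequent among genes that are active in most cells, and the DNA replication-related element (DRE) and the element named motif 1 are common core promoter sequences there. DRE is bound by DREF, the CGATA within it also by the boundary protein BEAF-32, and motif 1 by the zinc-finger protein M1BP. Row is itself a zinc-finger protein, related to WOC and known to associate with that protein and with the heterochromatin protein homologue HP1c.

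The letters of such a shared upstream region are shown for the 6 strongest members whose TSSs lay at most 300 bp apart, whose summit lay between the TSSs and whose intervening DNA held no annotated exon. Members of 1 chromosome arm were left out of this display. Each line gives the plus strand of dm6, as in the RefSeq sequence of that assembly, from the base after the TSS of the left, minus-strand gene to the base before the TSS of the right, plus-strand gene. Capitals mark DRE (TATCGATA), CGATA or its complement TATCG, and the core of motif 1 (GGTCACAC or its complement).
Art3/mRpS10, chr3R:15229409-15229664, summit at base 123: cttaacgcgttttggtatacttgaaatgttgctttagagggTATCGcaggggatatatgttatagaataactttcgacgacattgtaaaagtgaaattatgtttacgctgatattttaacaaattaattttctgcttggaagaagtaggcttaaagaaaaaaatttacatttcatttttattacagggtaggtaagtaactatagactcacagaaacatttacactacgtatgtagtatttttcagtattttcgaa
CG7601/CIA30, chr3R:29736746-29736964, summit at base 82: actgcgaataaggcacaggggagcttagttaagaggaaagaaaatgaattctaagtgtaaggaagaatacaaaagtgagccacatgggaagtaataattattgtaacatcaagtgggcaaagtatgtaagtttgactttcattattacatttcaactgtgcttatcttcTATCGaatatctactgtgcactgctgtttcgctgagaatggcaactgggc
Atat/Shc, chr3L:9426759-9427009, summit at base 130: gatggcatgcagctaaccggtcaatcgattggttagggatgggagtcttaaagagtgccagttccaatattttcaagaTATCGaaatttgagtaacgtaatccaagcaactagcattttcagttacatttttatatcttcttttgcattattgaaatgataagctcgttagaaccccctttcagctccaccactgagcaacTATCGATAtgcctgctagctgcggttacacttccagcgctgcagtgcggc
Tcs5/CHMP2B, chr3L:5139396-5139618, summit at base 100: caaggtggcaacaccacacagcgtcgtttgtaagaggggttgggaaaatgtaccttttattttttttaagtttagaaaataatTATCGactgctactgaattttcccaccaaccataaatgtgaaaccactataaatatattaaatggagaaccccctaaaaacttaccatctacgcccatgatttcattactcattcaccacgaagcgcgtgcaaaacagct
Kmn2/CG2698, chr3R:8001310-8001561, summit at base 140: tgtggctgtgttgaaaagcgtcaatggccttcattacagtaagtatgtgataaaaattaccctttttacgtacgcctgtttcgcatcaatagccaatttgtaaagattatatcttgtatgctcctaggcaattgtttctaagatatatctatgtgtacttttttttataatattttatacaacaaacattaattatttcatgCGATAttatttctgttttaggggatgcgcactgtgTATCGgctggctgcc
CG13390/CG17294, chr2L:8376798-8377034, summit at base 91: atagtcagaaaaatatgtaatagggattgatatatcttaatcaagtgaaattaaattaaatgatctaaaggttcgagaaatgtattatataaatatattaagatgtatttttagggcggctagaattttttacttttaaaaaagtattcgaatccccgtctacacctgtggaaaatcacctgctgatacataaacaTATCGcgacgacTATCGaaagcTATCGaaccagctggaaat

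Each of these 6 regions held CGATA at least once, and 1 of them, Atat/Shc, held a full DRE. Their GC contents were between 30.1% and 43.0%. The next strongest 2 members with a DRE, besides Atat/Shc, and the strongest 2 with the core of motif 1 that met the same conditions are added below, a choice made after their values were seen, because DRE and motif 1 are the elements on which members and other promoter peaks are compared.
fws/Lamtor3, chr2L:17481030-17481230, summit at base 100: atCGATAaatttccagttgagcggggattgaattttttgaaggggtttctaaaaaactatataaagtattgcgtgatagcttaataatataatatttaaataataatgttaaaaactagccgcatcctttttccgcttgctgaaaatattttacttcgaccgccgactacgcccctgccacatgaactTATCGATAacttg
Myo95E/TBC1d7, chr3R:24161499-24161726, summit at base 131: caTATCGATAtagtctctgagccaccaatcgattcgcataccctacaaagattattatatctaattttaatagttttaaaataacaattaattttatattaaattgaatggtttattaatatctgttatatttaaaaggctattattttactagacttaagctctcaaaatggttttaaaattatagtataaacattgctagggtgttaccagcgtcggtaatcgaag
brun/CG2614, chr2L:20656179-20656425, summit at base 118: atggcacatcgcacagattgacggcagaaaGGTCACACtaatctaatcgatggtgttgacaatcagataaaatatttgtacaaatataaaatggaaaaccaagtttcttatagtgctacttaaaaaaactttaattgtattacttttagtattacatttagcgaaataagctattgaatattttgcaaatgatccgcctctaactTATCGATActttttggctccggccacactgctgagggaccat
klar/BORCS6, chr3L:540615-540850, summit at base 164: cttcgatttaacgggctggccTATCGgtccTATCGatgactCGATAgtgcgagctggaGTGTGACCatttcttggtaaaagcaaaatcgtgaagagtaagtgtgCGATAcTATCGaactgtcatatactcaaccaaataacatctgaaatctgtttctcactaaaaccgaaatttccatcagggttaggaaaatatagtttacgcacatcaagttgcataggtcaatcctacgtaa
In fws/Lamtor3, at the genes of a Golgi tethering subunit and of a lysosomal Ragulator subunit, and in Myo95E/TBC1d7, at those of an unconventional myosin and a TBC-domain protein, the DRE stood within the outer part of the region and the summit near its middle. The 4 regions had signal ranks 112, 135, 540 and 567 of the conservative list.

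The annotation used (Ensembl, assembly BDGP6, the same as dm6) holds 2720 pairs of protein-coding genes with TSSs on opposite strands at most 1000 bp apart, and 1446 of them (53.2%) had a Row summit within 500 bp of both TSSs. In the replicates' own lists the share was 55.3%, 47.1% and 49.4%. Of 1612 pairs with a summit in any replicate, 1162 (72.1%) had one in all 3. The share depended on the distance between the TSSs. It was 55.2% at 0 to 100 bp (232 of 420 pairs), 62.2% above that and up to 250 bp (368 of 592) and 70.0% from there up to 500 bp (659 of 942). Where the 5′ ends overlapped, 39.4% of 104 pairs held one, but overlaps of up to 1000 bp were counted. At long overlaps the rule leaves less room for a summit. A summit near either gene was present in 55.8% of the overlapping pairs, against 58.8% of pairs at 0 to 100 bp. Pairs over 500 bp apart stood at 22.1% of 662, but there the rule itself leaves little room for a summit. Counting instead any summit near either gene, 61.3% of those wider pairs had 1, made up of 34.9% with both genes within 500 bp of a summit and 26.4% with one gene only.

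**Figure D1:**
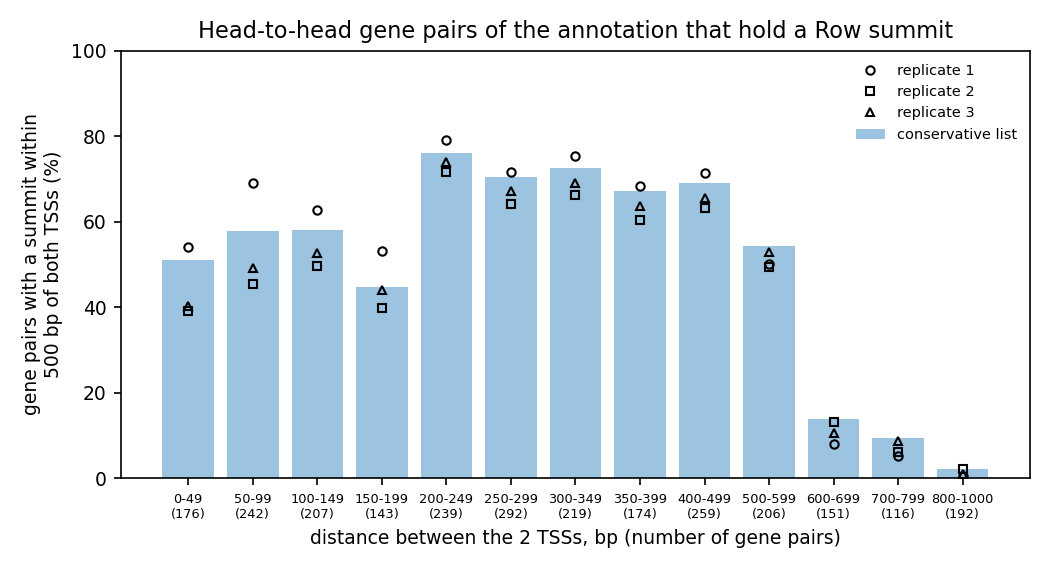
Share of head-to-head gene pairs of the annotation with a Row summit within 500 bp of both TSSs (vertical axis, %), by distance between the TSSs (horizontal axis, bp, with the number of pairs in parentheses). Bars show the conservative list and symbols the 3 replicates' own lists. In all of them the share stands at its highest from 200 to under 250 bp (76.2% in the conservative list), next to a low from 150 to under 200 bp (44.8%), and beyond 500 bp the rule limits it.

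A step stood out between neighbouring distances. Pairs 200 to under 250 bp apart held a summit in 79.1%, 71.5% and 74.1% of cases in replicates 1, 2 and 3, whereas pairs 150 to under 200 bp apart did so in 53.1%, 39.9% and 44.1%, without overlap between the groups. Part of the lower class is made of the histone genes, whose near-identical repeats place His2B beside His2A and His4 beside His3 head to head. None of the 42 annotated pairs of those repeats, with TSSs 26 to 189 bp apart, held a summit in any replicate. They are counted in the shares above for 0 to 100 bp and for up to 250 bp, and lower both. Part of the rise towards the class up to 500 bp is thus due to these pairs. Reads from near-identical copies cannot be assigned to 1 copy, so values there are uncertain. With the histone repeat pairs left out, a choice made after the data were seen, the class of 150 to under 200 bp stood at 51.2%, and all pairs together at 54.0%.

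Summits lay between the TSSs in 1263 members (81.7%), outside the intervening region of head-to-head genes in 257 (16.6%) and at overlapping 5′ ends in 25 (1.62%). The median distance between the TSSs was 290 bp, with quartiles of 186 and 402 bp. The summit was a median of 85 bp from the nearer TSS and 206 bp from the farther one. Members served 2 genes in 1475 cases and 3 or more in 70, up to 10 genes. Of the 1340 gene pairs nearest to a member, 199 carried 2 summits and 3 carried more.

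Where between the genes the summit lay changed with the distance between them. For TSSs 200 to under 300 bp apart, 67.6% of the summits that fell between the TSSs lay in the middle one of 3 equal parts of the region, and in the replicates 68.9% ± 1.99 (SD, n = 3). For TSSs 400 to under 600 bp apart this share was 17.5%, and 20.8% ± 3.28 in the replicates. The distance to the nearer TSS was almost the same in both classes, with medians of 98 ± 1.00 bp for the closer class and 107 ± 7.02 bp for the wider one over the replicates. In the closer class the summit thus stood about midway, and in the wider one it stood nearer to 1 of the 2 genes. With TSSs under 100 bp apart, 37.4% of the summits fell between the TSSs. Since the nearer of a pair of TSSs is by construction close in a narrow region, these distances describe the layout and carry no test.

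**Figure D2:**
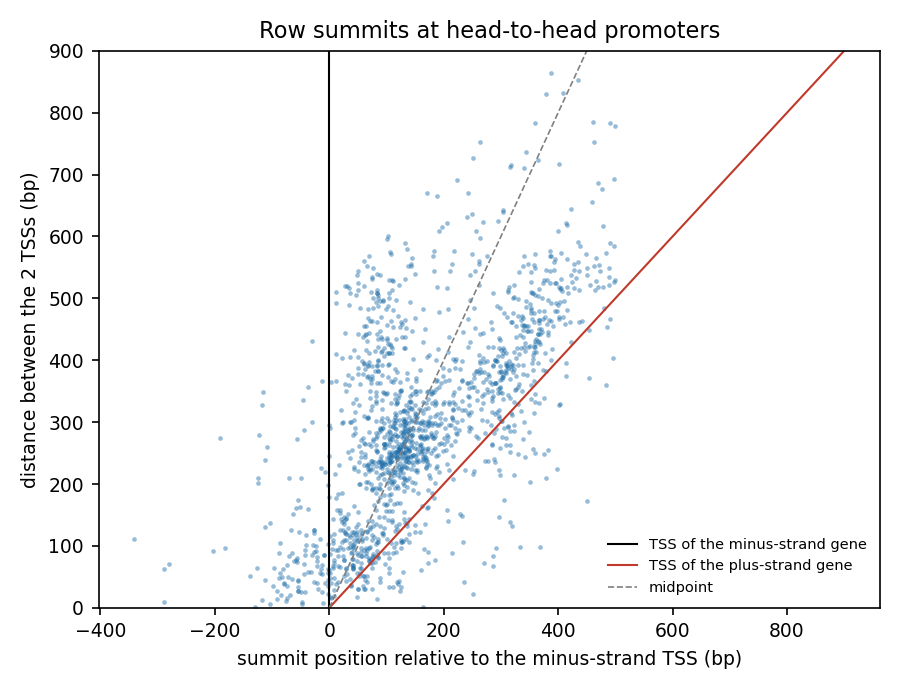
Position of each member's summit relative to the TSS of the minus-strand gene (horizontal axis, bp, positive towards the plus-strand gene) against the distance between the 2 TSSs (vertical axis, bp) for the 1520 head-to-head members of the conservative list. Solid lines mark the 2 TSSs and the dashed line the midpoint. Points gather along the midpoint between 200 and 300 bp and part into 2 bands, each near a TSS, above about 400 bp.

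Members were among the stronger peaks. The strongest lay at the promoters of Chro, which encodes the chromodomain protein Chromator, and Ssl1, which encodes a subunit of the general transcription factor TFIIH (chr3L:22878628-22879168). Its deposited signal value, used here as peak strength, was 2797, 3100 and 2526 in replicates 1, 2 and 3, with ranks 1, 4 and 5. The summit of this peak stood 86 bp on the Chro side of the intervening 105 bp. Art3/mRpS10, at genes for an arginine methyltransferase and a protein of the mitochondrial ribosome, had 2152, 2716 and 2950. At mRpS23/CenG1A, whose genes encode a mitochondrial ribosomal protein and an Arf GTPase-activating protein, the values were 2573, 2765 and 2308. These 3 were near the top of each replicate's list, at rank 10 or better. Among the rest of the strongest 10 were CG7601/CIA30, at the gene of a complex I assembly factor. Others were Atat/Shc, at the genes of a tubulin acetyltransferase and a signalling adaptor, and Tcs5/CHMP2B, at the genes of a protein of tRNA modification and an ESCRT-III subunit. Fbw5/CG9147, Kmn2/CG2698 and CG13390/CG17294 were also among them, and all 10 were listed in the 3 replicates.

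Over all members the median signal value of the conservative list was 494, with quartiles of 234 and 1016, against 353 for one-strand promoter peaks and 229 for the other peaks. Because signal values are comparable only within a list, each was turned into its percentile in its own list. The median percentile of members was 64.9, 70.1 and 70.1 in replicates 1, 2 and 3, against 53.5, 58.8 and 57.9 for one-strand promoter peaks. Members were higher in 3 of 3 replicates, by 11.6 ± 0.461 points (SD, n = 3), a difference many times its spread. The exact two-sided sign-flip permutation test over replicates gave p = 0.25, the smallest that 3 replicates allow, so neither this nor any later comparison over replicates can pass 0.05. Of the 1000 strongest peaks, 333 were members, and of the 100 strongest, 30. Replicates are separate biosamples of the same strain. The conservative list was made by comparing replicates 1 and 2, with signal values from a pool.

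**Figure D3:**
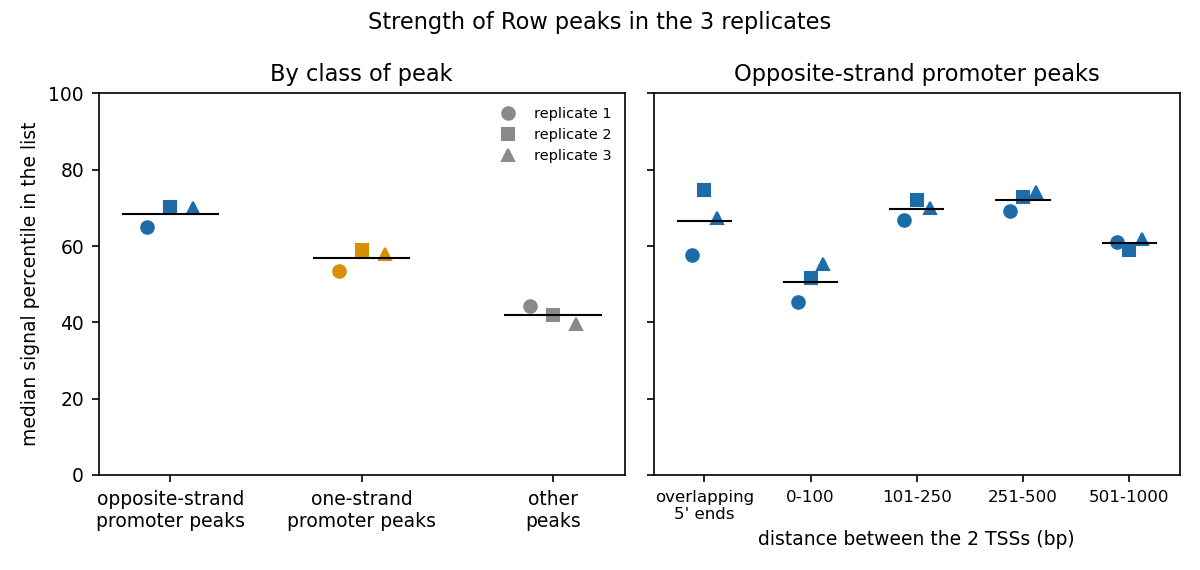
Median percentile of the signal value within each replicate's own list (vertical axis), for opposite-strand promoter peaks, one-strand promoter peaks and other peaks (left) and for opposite-strand promoter peaks by distance between the TSSs (right). Symbols are the 3 replicates and lines their means. Opposite-strand promoter peaks are the highest class in each replicate (mean 68.4 against 56.8 and lower), and those with TSSs 0 to 100 bp apart are the lowest of the distance classes in each (mean 50.7).

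Members at closely spaced TSSs were weaker. With TSSs 0 to 100 bp apart the median percentile was 45.3, 51.5 and 55.2 in replicates 1, 2 and 3, and with TSSs over 100 bp apart it was 67.9, 70.8 and 72.3, so the groups did not overlap. The difference was -19.6 ± 2.74 points (SD, n = 3, exact sign-flip permutation p = 0.25). Members with TSSs over 100 and up to 250 bp apart averaged 69.6 ± 2.72, those up to 500 bp apart 72.1 ± 2.53, and wider ones 60.7 ± 1.5. Within replicates, the class up to 500 bp stood 2.44 ± 1.73 points above the class up to 250 bp, in 3 of 3 replicates (SD, n = 3, exact sign-flip permutation p = 0.25). The strongest member of the closest class was CG8372/CG8360, with 57 bp between the TSSs, signal values of 1405, 1726 and 1319 and a summit 48 bp beyond the plus-strand TSS. Also in that class, mRpL23/CG9004 had values of 1099, 1608 and 1201, and SerRS/CG17260, at the seryl-tRNA synthetase gene, had 580, 1003 and 774.

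Repeat detection followed the same order. Of the members, 81.7% overlapped a thresholded peak in all 3 replicates, against 70.4% of one-strand promoter peaks and 52.8% of the other peaks, where 62.1% of the whole list did. In replicate 3, which was not one of the 2 replicates compared to make the list, the shares were 89.4%, 78.7% and 59.8%. The signal values of the list come from a pool that may include replicate 3, so these shares are not an independent check. With TSSs 0 to 100 bp apart, 62.8% of the members were in all 3 replicates, near the share of the whole list, while the wider classes stood between 83.0% and 85.4%. Above the median signal value of the list, 98.1% of members and 95.7% of one-strand promoter peaks were in all 3 replicates, a difference of 2.42 percentage points in place of 11.4. Peak width had no fixed direction in the replicates' full lists, with medians of 424, 370.5 and 380 bp for members against 424, 371 and 363 bp for one-strand promoter peaks in replicates 1, 2 and 3. Among peaks above the median signal value, members were wider by 54.5 ± 13.3 bp in 3 of 3 replicates (SD, n = 3, exact sign-flip permutation p = 0.25), and in the conservative list their median was wider by 30.5 bp.

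Sequence was compared up to 100 bp to either side of each summit. By the rule, members had TSSs of both strands within 500 bp and one-strand promoter peaks those of 1 strand only. A motif that lies beside TSSs can therefore be more frequent per member without being more frequent per promoter. All shares here and in the next paragraph are per peak, and shares per promoter were not computed. The replicates share many of their peaks, and sequence does not vary between them. SDs of motif shares and GC content therefore show how far the lists differ, not the error over peaks. DRE was present at 14.9%, 12.9% and 13.9% of members in replicates 1, 2 and 3, against 9.27%, 8.03% and 9.19% of one-strand promoter peaks. The groups did not overlap, and the difference was 5.06 ± 0.459 percentage points (SD, n = 3, exact sign-flip permutation p = 0.25, and 0.25 after Benjamini-Hochberg adjustment over the 10 motifs). CGATA, which every DRE contains, was present at 53.7% ± 0.815 of members against 40.6% ± 1.07, a difference of 13.1 ± 0.550 points in 3 of 3 replicates. In the members' own flanks, 1000 bp away, DRE was at 0.550% and CGATA at 20.8% of windows, and over all 19630 annotated protein-coding TSSs DRE was within 100 bp of 6.42% and CGATA of 37.2%. The size of the DRE difference depended on the window, at 0.901 points within 50 bp of the summit and 10.6 points within 200 bp, and it was 2.30 points when TSSs had to lie within 250 bp of the summit and 3.06 points with 1 TSS per gene. For CGATA it was 4.75 points within 50 bp.

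Other core promoter sequences divided in both directions. The core of motif 7 (CANCNCT) was at 48.0% ± 1.25 of members against 39.8% ± 1.45 of one-strand promoter peaks, that of motif 6 (GTATNTTT) at 14.3% ± 0.303 against 11.96% ± 0.249, and the hexamer TATAAA of the TATA box at 40.5% ± 2.26 against 35.2% ± 2.89, each higher in 3 of 3 replicates. Within 50 bp of the summit the differences were 0.0122 points for motif 7 and 0.962 for motif 6, and within 200 bp that of motif 6 was 4.90. TATAAA was not particular to promoter peaks. In the conservative list it was at 40.5% of members, 35.8% of one-strand promoter peaks and 38.2% of the other peaks. Motif 7 and motif 6 were at 22.2% and 10.8% of the other peaks. Lower in members in 3 of 3 replicates were GAGAG, the site of GAGA factor, at 13.6% ± 0.514 against 20.9% ± 2.92, the initiator pentamer TCAGT at 29.6% ± 0.552 against 32.8% ± 1.20, and runs of 8 A at 12.6% ± 0.403 against 13.7% ± 0.598. The GAGAG difference was -2.72 points within 50 bp of the summit and -15.3 points within 200 bp. The initiator difference was -0.565 ± 1.26 points within 50 bp and -1.17 ± 2.05 with 1 TSS per gene, both within the spread between replicates. The last of these sequences, the run of A, reversed in 3 other settings. The core of motif 1 was at 7.56% ± 1.4 against 6.14% ± 0.990, with a difference of 1.42 ± 0.665 points that was -0.0734 with 1 TSS per gene and 8.79 within 200 bp of the summit. The E-box CAGCTG was at 12.2% ± 1.83 against 10.5% ± 1.93, with a difference of 1.67 ± 0.523 points that was 0.36 within 50 bp of the summit and 10.2 within 200 bp. All motifs were searched on both strands, and a match is a run of letters and not a measured binding site. GC content was 34.6% ± 0.883 in members and 36.5% ± 1.53 in one-strand promoter peaks, a difference of -1.97 ± 0.694 points in 3 of 3 replicates, and the part of base composition in the motif shares was not tested.

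**Figure D4:**
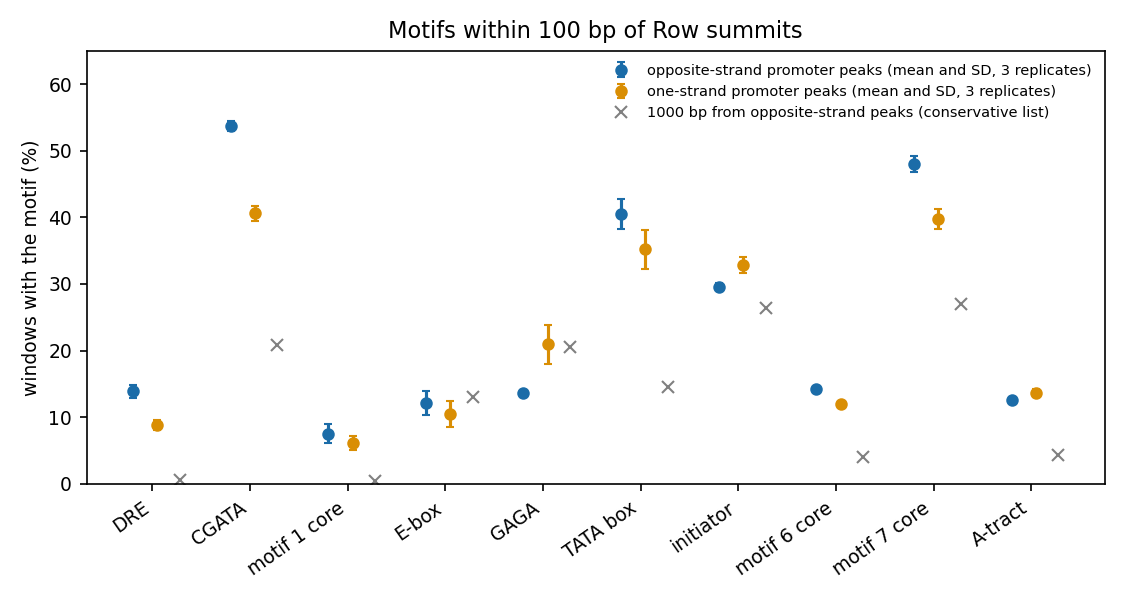
Share of peaks with each motif at most 100 bp from the summit (vertical axis, %), as mean and SD over the 3 replicates for opposite-strand and one-strand promoter peaks. Crosses give the share in windows 1000 bp from the opposite-strand promoter peaks of the conservative list. CGATA and motif 7 show the widest gaps upward (53.7% against 40.6% and 48.0% against 39.8%) and GAGA the widest downward (13.6% against 20.9%).

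DRE and motif 1 were denser to either side of the members' summits than at them, in 2 of 3 replicates for DRE and in 3 of 3 for motif 1. DRE matches numbered 81.2 ± 7.17 per 1000 members at 75 to 125 bp from the summit and 67.1 ± 7.54 within 50 bp, while at one-strand promoter peaks the same counts were 32.9 ± 7.18 and 57.2 ± 11.1. The outer zone held 1.23 ± 0.236 times the matches of the inner one at members (0.984, 1.46 and 1.24 in replicates 1, 2 and 3) and 0.607 ± 0.253 times at one-strand promoter peaks, a difference of 0.62 ± 0.0545 in 3 of 3 replicates (exact sign-flip permutation p = 0.25). For motif 1 the ratios were 1.70 ± 0.380 at members and 0.866 ± 0.333 at one-strand promoter peaks, a difference of 0.831 ± 0.0836 in 3 of 3 replicates. Both zones span 100 bp in all. In the 845 gene pairs with a summit and TSSs 200 to 500 bp apart, 81.7% of DRE matches within the region and 100 bp beyond it lay between the TSSs, and those lay a median of 31.5 bp inside the nearer TSS, with quartiles of 15.5 and 51.5 bp. Of the matches to motif 1, 42.2% lay between the TSSs, a median of 22.5 bp inside the nearer one. The zones were chosen after the plot of motif positions was seen. By the rule, members have TSSs of both strands near the summit and one-strand promoter peaks of 1 strand only. Positions were not turned to the direction of the gene. The contrast between the 2 classes thus depends in part on how they were defined, and its p does not test more than that.

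**Figure D5:**
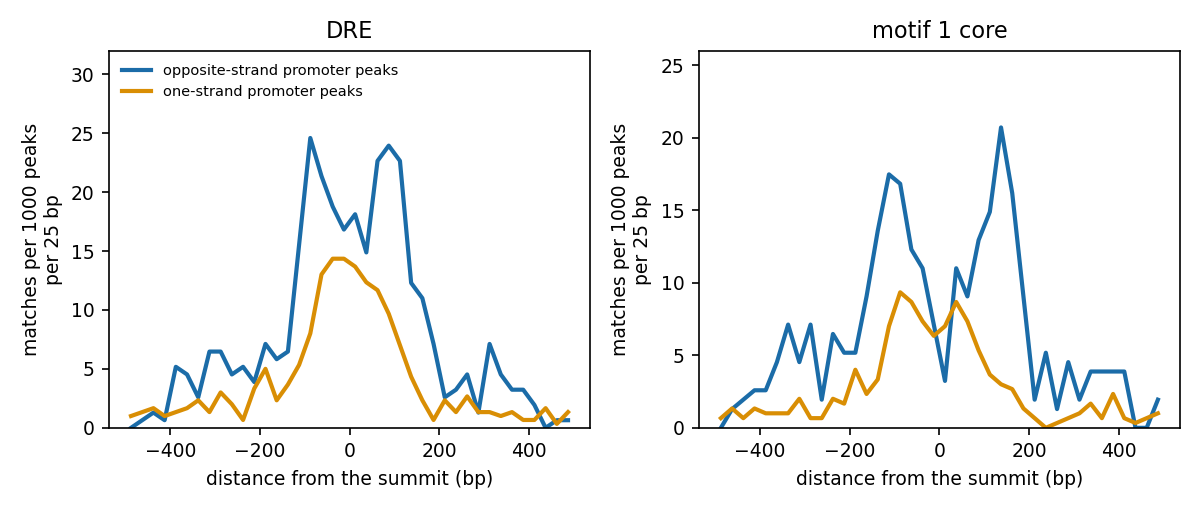
Matches to DRE (left) and to the core of motif 1 (right) per 1000 peaks and 25 bp (vertical axes), by distance from the summit (horizontal axes, bp), in the conservative list. Opposite-strand promoter peaks have 2 crests on either side of the summit and a dip at it, where one-strand promoter peaks have their highest values for DRE near the summit.

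Among the gene pairs of the annotation, those with a summit were set against those without one, at the midpoint of each head-to-head pair, so that position did not depend on the summit. The rule limits how far a summit may lie from each TSS, so pairs with and without a summit differ in the distance between TSSs, and they were compared within 2 classes of distance, chosen after seeing the data. With TSSs 200 to under 300 bp apart, 388 of 531 pairs held a summit. DRE was within 100 bp of the midpoint in 11.2% ± 0.386 of the pairs with a summit and 4.44% ± 1.35 of those without (SD, n = 3), a difference of 6.72 ± 1.64 points. TATAAA was in 49.3% ± 0.897 and 35.2% ± 2.82, and GAGAG in 11.97% ± 0.282 and 18.2% ± 1.40. Each of these differences had the same direction in 3 of 3 replicates (exact sign-flip permutation p = 0.25 each). The sequence of a pair is the same in every replicate, and 1162 of 1612 pairs had a summit in all 3. The agreement and the SDs here thus measure how alike the lists are, not the error over pairs. The core of motif 1 was in 3.62% ± 0.354 and 4.02% ± 0.883, a difference within the spread between replicates. With TSSs 300 to under 500 bp apart, where the window leaves out the sequence next to the TSSs, 455 of 652 pairs held a summit and the differences were 1.07 ± 0.377 points for DRE, 17.7 ± 2.55 for TATAAA and -1.39 ± 1.99 for GAGAG. In the closer and the wider class CGATA differed by 11.1 ± 3.55 and 2.17 ± 3.49 points, and motif 7 by 7.88 ± 2.85 and -3.50 ± 0.947. Motif 6 differed by -2.32 ± 2.32 and -0.846 ± 0.238, the E-box by -1.34 ± 0.995 and -1.93 ± 0.925. TCAGT differed by -3.86 ± 1.39 and -7.86 ± 2.75, runs of A by 4.78 ± 1.44 and 3.85 ± 2.21. Motif 6, the E-box and runs of A had the opposite sign between members and one-strand promoter peaks. Over all distances DRE was in 10.3% ± 0.749 of pairs with a summit and 6.62% ± 1.18 of pairs without. Mean GC content was 31.3% ± 0.130 at pairs with a summit and 35.2% ± 0.212 at pairs without in the closer class, and 27.2% ± 0.216 and 31.8% ± 0.254 in the wider one. The part of base composition in the motif differences was not tested.

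Members with DRE or motif 1 were weaker than those without, as were members with most of the other motifs searched. The median signal percentile of members with DRE was 58.3 ± 2.06, against 70.5 ± 2.60 without (SD, n = 3), a difference of -12.2 ± 1.70 points in 3 of 3 replicates. With the core of motif 1 it was 47.6 ± 1.92, against 70.1 ± 2.87 without, and with CGATA 63.4 ± 3.46 against 74.4 ± 2.62. With TATAAA it was 74.4 ± 1.31, against 63.4 ± 4.0 without. The differences were -9.71 ± 7.25 points for the E-box, -7.45 ± 1.62 for TCAGT, -5.02 ± 2.63 for motif 6 and -3.92 ± 2.79 for GAGAG. For runs of A the difference was 7.36 ± 5.14 and for motif 7 -0.238 ± 2.65. Exact sign-flip permutation p was 0.25 for each of these but motif 7 (0.278 adjusted over the 10 motifs), and 0.75 for motif 7. DRE is also more frequent where TSSs are close, at 21.3% of members with TSSs 0 to 100 bp apart and 13.7% of those over 100 bp apart. Among the wider ones alone the differences were -12.0 ± 2.12 points for DRE and -20.9 ± 6.17 for motif 1, much as over all members. GC content moved with strength as well. Split into 3 groups at the terciles of GC content, members had a median percentile of 77.8 ± 1.27 in the lowest group, 71.6 ± 4.22 in the middle one and 51.5 ± 6.81 in the highest.

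Members lay at many genes of general cell function, such as those for protein synthesis. Of 13968 protein-coding genes, 2756 (19.7%) were at a member, and of the 5141 genes with an opposite-strand neighbour within 1000 bp, 53.6%. Proteins of the mitochondrial ribosome are an example, with 41 of 73 genes at a member, and 70.7% of the 58 that had such a neighbour. In replicates 1, 2 and 3 the count was 40, 39 and 41. Of aminoacyl-tRNA synthetase genes, which charge tRNAs, 18 of 33 were at a member, and 78.3% of the 23 paired ones. GluProRS/AP-1sigma had signal values of 877, 1173 and 1006. Of 92 genes for cytosolic ribosomal proteins, 37 were at a member (67.3% of 55 paired ones), the strongest being RpL34b/CG8132 with 578, 665 and 666. In the replicates' own lists the count was 33, 32 and 32. That was 58.8% ± 1.05 of the paired ones, against 50.9% ± 4.37 of all paired genes (SD, n = 3).

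Genes of transcription and nuclear functions were counted in the same way. General transcription factor genes (TFII and TAF) were at members in 14 of 29 cases, among them Taf5/Pex6, with 865, 1168 and 1160. Mediator genes were at members in 12 of 25, led by elm/MED27 with 764, 1154 and 1084, and nuclear pore genes in 11 of 21, led by Nup98-96/mbc with 550, 778 and 806. Of DNA replication licensing genes 8 of 19 were at a member, for example RPA1/Mcm2 with 257, 384 and 461. Of the paired genes, 70.0% of 20 on the TFII and TAF list and 63.2% of 19 on the Mediator list were at members, against 53.6% of all paired genes. In the replicates' own lists these shares were 66.7% ± 5.77 and 61.4% ± 11.0, against 50.9% ± 4.37 (SD, n = 3). With so few genes, the Mediator share lay near that of all paired genes. More of these genes had an opposite-strand neighbour to begin with, 69.0% and 76.0%, against 36.8% of all protein-coding genes. For the nuclear pore and replication lists the shares of paired genes were 57.9% and 57.1%, and in the replicates' own lists 50.9% ± 6.08 and 45.2% ± 8.25, against 50.9% ± 4.37 of all paired genes (SD, n = 3).

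Genes of membrane traffic, proteolysis and respiration were counted as well. Rab, Arf and Arl GTPase genes were at members in 18 of 46 cases, with the strongest at brm/Arl1, shared with the ATPase gene of the Brahma chromatin remodeller (1413, 1504 and 1704). Autophagy genes were at members in 11 of 20, such as ERR/Atg18a with 622, 917 and 894. Proteasome genes were there in 16 of 48, at l(2)37Bb/Rpn3 for one (417, 380 and 328), and respiratory chain and ATP synthase genes in 27 of 88, at TppII/ND-MWFE for one (579, 823 and 819). Of the paired genes on these lists, members held 69.2% of 26 Rab, Arf and Arl genes, 68.8% of 16 autophagy genes, 61.5% of 26 proteasome genes and 61.4% of 44 respiratory genes, against 53.6% of all paired genes. In the replicates' own lists these shares were 60.3% ± 8.01, 64.6% ± 3.61, 59.0% ± 5.88 and 60.6% ± 3.47, against 50.9% ± 4.37 (SD, n = 3). An opposite-strand neighbour was present for 44 of the 88 respiratory genes and for 54.2% to 80.0% of the genes on the other lists, against 36.8% of all protein-coding genes. In 5 members both genes were on a list. They were mRpL39/Prosbeta2 with 2 summits, RpS27/Nup37, Taf10b/Taf10, at a pair of genes for TAF10 proteins, and COX7A/Arl2, and apart from mRpL39/Prosbeta2 and RpS27/Nup37 these were listed in 2 of 3 replicates.

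Gene families used in few tissues or late in life were seldom at members. No cuticle protein gene of 92 was at a member, although 12 had an opposite-strand neighbour. Of 83 cytochrome P450 genes 1 was, Cyp9f2/CG5167, and of 179 odorant, gustatory and ionotropic receptor genes 3 were, namely Gr97a/CG5521, CG17768/Ir31a and Letm1/Ir60b, the last with no peak in replicate 2. Of the paired genes of these families, 0%, 8.33% and 11.1% were at a member. A summit between 2 genes counts for both. Counting only the gene whose TSS was closest to each member, 128 listed genes in place of 217 were at a member. Over all protein-coding genes it was 1489 in place of 2756. The lists differed, with 28 in place of 37 cytosolic and 18 in place of 41 mitochondrial ribosomal protein genes. For TFII and TAF genes it was 5 in place of 14, and for the receptor and cytochrome P450 genes 0.

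Members were spread over the chromosome arms. Among opposite-strand pairs, 57.2% held a summit on 3R, 53.6% on 3L, 52.9% on X, 50.8% on 2R and 50.3% on 2L, with replicate SDs from 3.01 to 6.30 points, and 4 of 11 did on chromosome 4. On the X, members were weaker, with median percentiles of 53.7, 55.6 and 59.9 in replicates 1, 2 and 3, against 67.8, 72.0 and 73.0 on the autosomes, a difference of -14.5 ± 1.65 points in 3 of 3 replicates (exact sign-flip permutation p = 0.25). The embryos' sex was not recorded. Peaks of the other classes on the X were not compared, so the difference may not be particular to members.

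Members with 3 or more genes were led by a peak in the mod(mdg4) locus, where separate annotated units named pre-mod(mdg4) lie on both strands (chr3R, signal values 778, 1372 and 1247). The 10 genes counted there are parts of 1 trans-spliced locus, so the count is one of annotation entries. Unc50/CG8043 had 851, 1153 and 1083 and Pax/Alp12, at the paxillin gene, had 787, 1045 and 771. At the edge of the rule, the 30 members whose farther TSS was over 480 and up to 500 bp from the summit had a median signal value of 277, and the 18 peaks just outside, over 500 and up to 520 bp, had 346.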

How the data were processed

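The data were peak lists of 3 biological replicates and of the series, from ChIP-seq against GFP in embryos, in dm6 coordinates per the labels, with sonicated fragments of 200 to 800 bp. Each deposited peak has a score, a scaled irreproducible discovery rate (IDR), and a deposited signal value, used here as peak strength. The deposited ranked lists also hold the −log10 of the global IDR. The caller, the aligner and the read numbers were not given in the sources used here, which leaves depth unknown, and intervals for counting error are omitted. The conservative list came from replicates 1 and 2, since 88.8% and 67.2% of the intervals copied into its ranked list were found in those replicates' lists. Its signal values come from a pool, and which replicates were pooled was not stated. At Chro/Ssl1 the pooled value was 8402, against 2797, 3100 and 2526 in replicates 1, 2 and 3. Whether replicate 3 was part of the pool was not tested. TSSs were those of Ensembl release 115 (13968 protein-coding genes, 19630 TSSs on 7 arms), sequence that of RefSeq. Percentiles, shares and medians were computed per list with Python 3.11.15, numpy 2.4.6 and pandas 2.3.3, and the 3 replicates were compared by exact sign-flip permutation tests on within-replicate differences. With 3 replicates no p under 0.25 exists. The classification was tested on simulated data. The rule for named members was the 10 strongest, the 3 strongest of each distance class, of each gene list and of those with 3 or more genes, and members with both genes listed, not all of which are printed, and 1 of the 10 strongest is not reported here. Members, gene lists, motifs and rules were chosen with earlier results of these data known, and gene lists rest on gene symbols.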

Additional observations from a re-analysis of the deposited data

Results flagged for a closer look

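The ranked list of replicates 1 and 2 held 174 peaks past the IDR threshold of the conservative list that this list does not contain, and 21 of them met the rule for opposite-strand promoters. The replicates' own lists were classified from their own peaks, and whether those lists hold peaks at the same places was not tested. Values of the conservative list above, among them the share of gene pairs with a summit, were computed without the 21 peaks. The strongest was at eIF4EHP/CG18428, next to the gene of a cap-binding repressor of translation (chr3R:24108867-24109464), with a signal value of 4418, followed by Sirt6/pont, at the genes of a deacetylase and the ATPase Pontin, with 3492. At mor/Hel89B, whose genes encode a subunit of the Brahma complex and the ATPase Mot1, the value was 987. The median over the 174 peaks was 301. Why these peaks are not in the conservative list was not tested.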

How the results depend on the processing

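No paired analysis was possible because there was no second group of samples, and classes of peaks were compared within each replicate. Of the alternative values of differences between members and one-strand promoter peaks, 223 kept the direction, 6 reversed and 1 was 0. Strength (8.98 to 16.4 points), GC content and the shares of DRE, its BEAF-32 site, the GAGA site, the TATA hexamer and motif 6 kept theirs in every setting run, and motif 7 did except within 50 bp, where 0.0122 points gives no direction. Leaving out 1 replicate gave 11.4 to 11.8 points for strength. Peak width reversed to -4.83 bp with summits within 1000 bp, was 0 bp in the pooled list, 54.5 bp above the median signal, 51 bp in the 5000 strongest peaks, 30.5 bp in the conservative list and 35 and 34 bp in the lists of replicates 1 and 3 and of 2 and 3, and ran from -0.25 to 8.50 bp with 1 replicate left out. Motif 1 reversed to -0.0734 points with 1 TSS per gene, and runs of A to 1.20 with summits within 250 bp, 0.566 in peaks above the median signal and 0.383 in the 5000 strongest peaks, a setting added after seeing the data. Members numbered 897 within 250 bp. Summits between the TSSs were 77.1% with 1 TSS per gene and 85.1% above the median signal. Pairs with a summit were 46.9% at both 250 and 1000 bp, 39.6% above the median signal, 42.9% with the summit between the TSSs and 59.6% in the pooled list. The causes were not tested. Listed genes at members were 128 by nearest TSS alone, where each peak counts for 1 gene.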
